A study of Mus musculus with 38 samples.

Results

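Mouse embryonic stem cells grown with serum were set against cells grown in 3 serum-free media, to find genes that differed from serum whichever inhibitor the serum-free medium held. The 12 RNA sequencing libraries at 8 days entered this comparison, out of 38 samples in the series (14 RNA and 24 whole-genome bisulfite samples), with 3 libraries in each of 4 media. Cells were of the E14 line (129/Ola background, XY), were kept without feeder cells on gelatin, started in serum medium and were passaged every 2 days. All media held leukaemia inhibitory factor (LIF). S/L was DMEM with fetal bovine serum and non-essential amino acids. The other media shared N2B27, a defined mixture of DMEM/F12 and neurobasal medium with N-2 supplement and B-27 supplement lacking vitamin A. MEKi/L added 1 µM of the MEK inhibitor PD03259010 (spelled as in the labels), GSK3i/L contained CHIR99021, which inhibits GSK3, at 3 µM, and both agents were present in 2i/L. Every serum-free medium thus held at least 1 inhibitor. Loss of serum, change of basal medium and presence of any inhibitor cannot be told apart in what follows. GSK3i/L cells kept for 24 days gave 2 further libraries, which are quoted only beside a few genes. The study's title asks how MEK and GSK3 inhibition differ in their effects on the methylome and transcriptome, and the comparison here is what the serum-free media had in common.

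As background, LIF acts through the transcription factor STAT3 to hold stem cells in self-renewal. Serum supplies growth factors, BMP and activin-type ligands, lipids bound to albumin and lipoprotein, and lysophospholipids that act through the actin-regulated factor SRF. N2B27 replaces these with insulin, transferrin, selenium, defined lipids and antioxidants. MEK inhibition blocks the FGF to ERK signal that prepares stem cells to differentiate, and GSK3 inhibition stabilises beta-catenin.

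Levels are RPM (reads of a gene per 1000000 reads of the library) taken from the log2 RPM values that the authors deposited, and are not corrected for transcript length, so levels are compared between samples of 1 gene only. Depth was 10550000 to 15760000 reads in the 8 libraries with plain values and about 7920000 to 17880000 reads in the 6 others, the S/L and GSK3i/L libraries at 8 days, whose values had been matched by the authors to 1 shared distribution. Of the 3 comparisons, that of GSK3i/L alone sets matched libraries against each other. A level worth 3 reads was 0.32 RPM in S/L and 0.26 RPM on average in the serum-free media, and no fold is given for genes at or below that level on 1 side; their fitted log2 differences depend on the value that stands for 0 reads and are no bound. The labels number the libraries 1 to 3 and call them biological replicates but do not say whether cultures were separate, so p-values measure the spread between these samples. The median of all 14980 tested genes was 0.19 higher (log2) in the serum-free media, and list medians below are to be read relative to it. Embryonic stem cell markers summed to 6920 to 7460 RPM in S/L at 8 days. The sums were 5150 to 6880 RPM in MEKi/L, 5550 to 6420 RPM in GSK3i/L and 4790 to 5370 RPM in 2i/L, so every serum-free library lay below S/L. Such a sum weighs abundant genes most, and the markers did not move together. The mean log2 difference from S/L was 0.77 for Nanog, 0.72 for Sox2 and 1.23 for Esrrb. It was -1.18 for Dppa5a, -1.05 for Tdgf1 and -0.93 for Utf1. Pou5f1, the core pluripotency factor, did not differ (1364, 1387 and 1492 RPM in S/L; 1069, 1204 and 1557 RPM as the lowest, median and highest of the 9 serum-free libraries; log2 difference -0.18 ± 0.14 SE, adjusted p = 0.28, limma).

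One property of the libraries moved with the comparison. The mean log2 RPM of 37 long housekeeping-type transcripts minus that of 40 short ones was between -3.41 and -2.95 in S/L and between -0.20 and -0.06 in 2i/L. In MEKi/L and GSK3i/L, replicate 1 stood at 0.11 and -0.19, beside 2i/L, while the other libraries stood between -3.07 and -1.98, nearer to S/L. Such a score can move with RNA quality and library preparation as well as with biology, and its part in the results was not tested apart from the fit that holds it as a covariate.

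**Figure D1:**
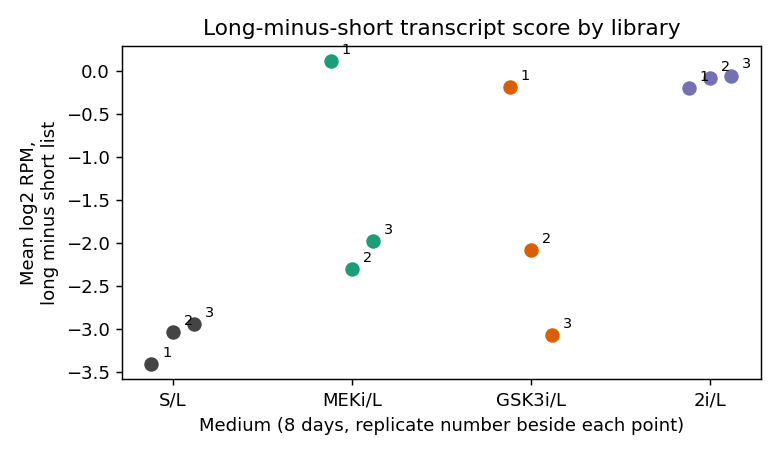
Mean log2 RPM of long transcripts minus that of short transcripts (vertical axis) in each of the 12 libraries at 8 days, by medium; 1 point is 1 library with its replicate number. S/L lies lowest, at -3.41 to -2.95, and 2i/L together with replicate 1 of MEKi/L and of GSK3i/L lies highest.

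A gene was called shared when it differed from S/L by at least 2-fold, in the same direction and with an adjusted p under 0.05 (limma, Benjamini-Hochberg), in each of MEKi/L, GSK3i/L and 2i/L. By this rule 867 genes (5.79% of 14980) rose and 806 (5.38%) fell. Counts of list members below are to be read beside these shares, and a small count near them is no result about a list. The 3 comparisons share the S/L libraries, so a deviation of those libraries enters all of them. In the mean of the 3 media, weighted equally, 2413 genes (16.1%) were higher and 2060 (13.8%) lower at the same thresholds. All 9 serum-free libraries lay above all 3 S/L libraries for 2333 genes (15.6%) and below them for 1666 (11.1%), and this held for 817 of the 867 shared rises and 763 of the 806 shared falls. With the transcript score held in the fit, 561 rises and 497 falls were called, and 478 of the 867 and 375 of the 806 were among them. The balance of directions also rested on scaling: rises made up 51.8% of shared genes as deposited and 42.5% (713 rises, 966 falls) after trimmed mean scaling.

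The size of many shared differences depended on the medium. The median log2 difference of the 867 rises was 2.00 in MEKi/L, 1.65 in GSK3i/L and 2.47 in 2i/L, and that of the 806 falls was -1.84, -1.78 and -2.74. The difference was widest in 2i/L for 650 of the rises and 687 of the falls. A test among the 3 serum-free media, which does not use the S/L libraries, found that 439 of the rises (50.6%) and 264 of the falls (32.8%) differed between media (adjusted p under 0.05, limma F test), against 32.5% of all tested genes. In this fit the share of the falls was thus close to that of all tested genes, and only the rises exceeded it. That contrast depended on the setting. The share of the falls was 51.5% without MEKi/L replicate 1 and 50.7% without GSK3i/L replicate 1. With the transcript score it was 51.9%, beside 51.3% of the rises. The share of all tested genes under these settings is not given here. A 4-fold difference in every medium was reached by 231 rises and 263 falls.

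The 15 rises with the largest smallest-of-3 difference held signalling molecules, a pair of adjacent metabolic genes and several neural or stress-related genes. Osm encodes oncostatin M, a cytokine of the LIF family (in the files at chr11:4236420-4241026, GRCm38). It stood at 0.0918, 0.306 and 0.331 RPM in the S/L libraries, at or near the level of 3 reads, and at 9.71 to 12.3 RPM in MEKi/L, 6.24 to 6.92 RPM in GSK3i/L and 27.2 to 29 RPM in 2i/L. Smad9, a BMP-activated SMAD, was at 0.0918, 0.142 and 0.0935 RPM in S/L and at 2.56 to 3.87 RPM in MEKi/L, 5.1 to 6.59 RPM in GSK3i/L and 10.8 to 13.3 RPM in 2i/L. No library of the serum-free media overlapped S/L for either gene, which the rule that chose the largest rises and falls requires. Both differed among the 3 media (adjusted p = 0.002 and 0.00055, limma F test). Il34, a ligand of the CSF1 receptor, was at 0.154, 0.306 and 0.711 RPM in S/L, with 2.47, 6.09 and 9.07 RPM as the lowest, median and highest serum-free libraries. Dkk3, a secreted protein of the Dickkopf family, rose from 1.98, 4.64 and 2.76 RPM to 30.1, 42.9 and 83.6 RPM, a 15.3-fold mean difference.

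Dmgdh and Bhmt2, whose genes lie next to each other, rose. Dmgdh, mitochondrial dimethylglycine dehydrogenase (chr13:93674433-93752831), was at 0.554, 0.925 and 0.517 RPM in S/L and at 18.1 to 18.5 RPM in MEKi/L, 8.15 to 8.38 RPM in GSK3i/L and 89.6 to 99.1 RPM in 2i/L. Its mean log2 difference was 5.24 ± 0.17 SE (adjusted p = 2.9e-10, limma). Bhmt2 encodes a homocysteine methyltransferase (chr13:93655720-93674302). It lies on the - strand, with its start just before that of Dmgdh on the + strand. Bhmt2 was at 0.241, 0.0893 and 0.331 RPM in S/L and at 7.68 to 10.9 RPM in MEKi/L, 2.63 to 4.16 RPM in GSK3i/L and 35.4 to 38.3 RPM in 2i/L. The third gene of that stretch, Bhmt (chr13:93616891-93637961), did not follow in every medium: it was at 0.154, 0.306 and 0.0935 RPM in S/L and at 10.9 to 14.5 RPM in MEKi/L, 0 to 0.182 RPM in GSK3i/L and 18.5 to 24.3 RPM in 2i/L. Bhmt was therefore not shared, and the 2i/L and MEKi/L libraries carried its difference.

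Slfn9, of the Schlafen family of growth regulators, was at 1.19, 0.745 and 0.711 RPM in S/L and 11.1, 25.3 and 28.8 RPM (lowest, median and highest) in the serum-free libraries, 22.8-fold higher on average. Its neighbour Slfn8 was at 0.0918, 0.0893 and 0.232 RPM in S/L and 1.44, 4.17 and 5.2 RPM in the others, and reads may be split between these similar genes. Xaf1, an interferon-inducible partner of the apoptosis inhibitor XIAP, rose from 2.11, 1.99 and 1.29 RPM to 52.6 to 75.5 RPM in MEKi/L, 17.6 to 34.6 RPM in GSK3i/L and 111 to 156 RPM in 2i/L. Slit2, an axon guidance ligand, rose from 0.554, 0.838 and 1.09 RPM to 16.1 to 26.3 RPM in MEKi/L, 7.87 to 15.3 RPM in GSK3i/L and 54.4 to 60.1 RPM in 2i/L. Both were lowest in GSK3i/L and highest in 2i/L among the serum-free media, with no overlap between these media. Jakmip1, a microtubule-binding protein of neurons, rose 22.4-fold, from 2.48, 2.17 and 2.36 RPM to 19, 52 and 87 RPM. Pla2g4e, a cytosolic phospholipase, and Tnik, a kinase that binds TCF factors, were 26.9 and 24.1 times higher. Vax2, a homeobox factor of the ventral eye, was at 0.241, 0.142 and 0.155 RPM in S/L and 3.16, 15.7 and 22.1 RPM in the serum-free libraries.

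The largest falls were genes that serum-free libraries held at or near 0. Zscan4d, a marker of the rare 2-cell-like cells of stem cell cultures, was at 33.8, 23.2 and 15.5 RPM in S/L and at 0 to 0.19 RPM in MEKi/L, 0 to 1.15 RPM in GSK3i/L and 0 to 0 RPM in 2i/L. Wt1, a zinc finger transcription factor, was at 8.33, 6.4 and 5.45 RPM in S/L and at 0.0635 to 0.19 RPM in MEKi/L, 0 to 0 RPM in GSK3i/L and 0 to 0 RPM in 2i/L. Myo1f, an unconventional myosin best known from immune cells, was at 67.3, 55.1 and 39.4 RPM in S/L and at 1.14 to 1.52 RPM in MEKi/L, 0 to 0.337 RPM in GSK3i/L and 0.0661 to 0.079 RPM in 2i/L. For each of these genes the lowest S/L library lay above the highest serum-free library, which the rule that chose them requires. Aass, the first enzyme of lysine breakdown, fell from 81.1, 47.5 and 66.3 RPM to 2.73 to 5.59 RPM in MEKi/L, 0.337 to 0.74 RPM in GSK3i/L and 0.237 to 0.533 RPM in 2i/L, and its mean log2 difference was -6.12 ± 0.34 SE (adjusted p = 2.5e-08, limma). Fgf1, a growth factor, was at 7.86, 5.5 and 8.41 RPM in S/L with 0, 0.182 and 0.952 RPM as the lowest, median and highest of the other libraries. Coch, a secreted matrix protein, was at 16.1, 12.2 and 10.3 RPM and 0.079, 0.318 and 1.37 RPM. Insm1, a transcription factor of neuroendocrine cells, was at 7.36, 6.64 and 8.16 RPM and 0, 0.216 and 0.571 RPM. Hfe2 (hemojuvelin), a BMP co-receptor in iron control, was at 6.74, 5.3 and 4.78 RPM and 0.0635, 0.284 and 0.791 RPM, and Fam190a at 11.2, 6.74 and 4.16 RPM and 0, 0.141 and 0.379 RPM.

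Not every loss was kept at 24 days in GSK3i/L. Spink3, a secreted protease inhibitor, was at 74, 31.5 and 37.9 RPM in S/L and 1.01 to 2.46 RPM in MEKi/L, 0.534 to 3.29 RPM in GSK3i/L and 0 to 0 RPM in 2i/L at 8 days. Its 24-day libraries read 17 and 3.88 RPM. Car4, a membrane carbonic anhydrase that marks primed cells, was at 18.6, 14 and 16.1 RPM in S/L and 0.379 to 0.761 RPM in MEKi/L, 0.128 to 0.324 RPM in GSK3i/L and 0 to 0.132 RPM in 2i/L at 8 days, with 20.3 and 2.55 RPM at 24 days. The 2 libraries at 24 days lay on either side of the lowest S/L library for Car4 and both below it for Spink3. Myo1f, Zscan4d, Gbp1 and Gbp2 were at 0 in both. No test was made at 24 days.

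**Figure D2:**
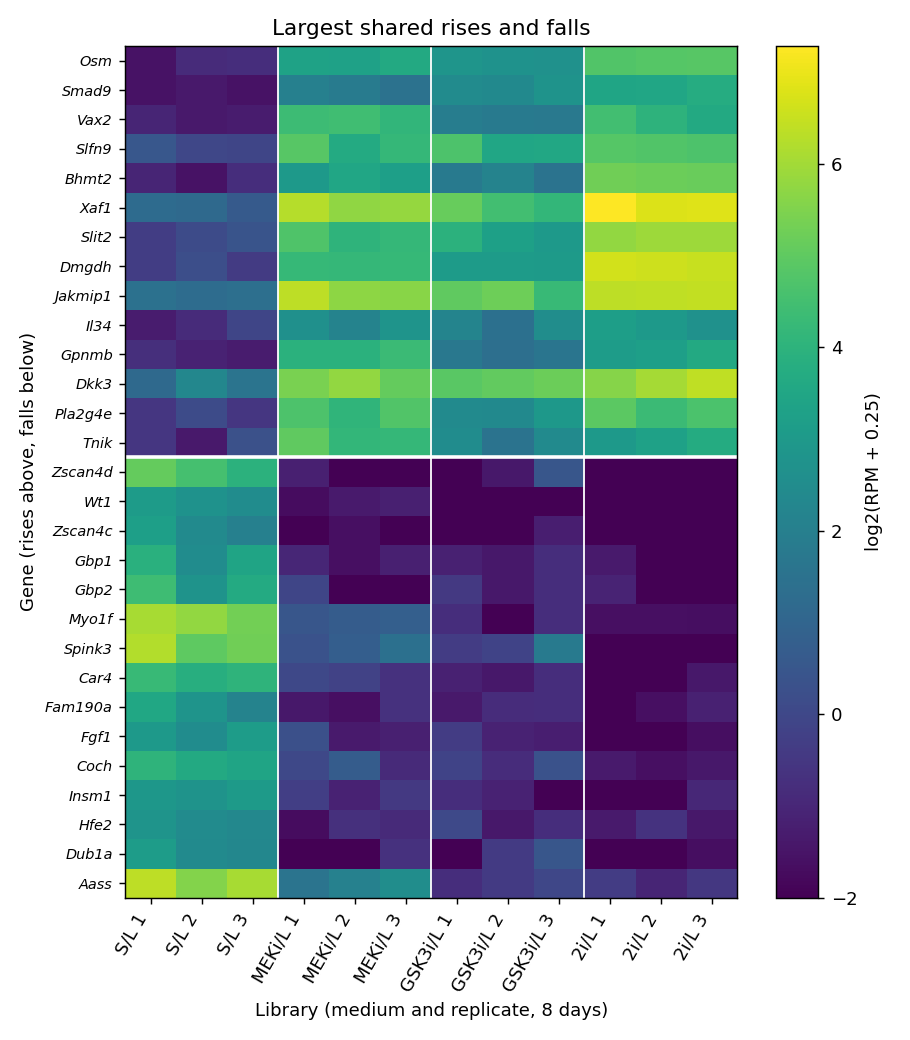
Level as log2(RPM + 0.25) (colour) of the largest shared rises (top) and falls (bottom) in each of the 12 libraries at 8 days. The 3 S/L columns are dark for the rises and bright for the falls, and 2i/L is brightest for Osm, Dmgdh, Xaf1 and Slit2.

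A few genes moved to almost the same extent in each medium. Among shared genes of at least 4-fold, Fgf11, a fibroblast growth factor homologue that stays in the cell, had the narrowest rise, with log2 differences of 2.40, 2.41 and 2.51 in MEKi/L, GSK3i/L and 2i/L. It read 1.19, 1.02 and 1.19 RPM in S/L and 4.76, 6.67 and 7.83 RPM as the lowest, median and highest of the serum-free libraries. Ephx2, soluble epoxide hydrolase, an enzyme of lipid epoxides, rose from 10.3, 13.2 and 19.5 RPM to 71.3, 97 and 151 RPM, with differences of 2.80, 2.56 and 3.04. Adhfe1, a mitochondrial iron-dependent alcohol dehydrogenase, had 2.13, 2.21 and 2.31, and Rhov, a small GTPase, 2.31, 2.45 and 2.75. Of the falls, Dusp9, a phosphatase that switches off MAP kinases and a known BMP target in stem cells, went from 70.8, 99.6 and 91.3 RPM to 9.19 to 14.1 RPM in MEKi/L, 10.4 to 18 RPM in GSK3i/L and 8 to 13.4 RPM in 2i/L. Its differences were -2.85, -2.59 and -2.98, and GSK3i/L, which held no MEK inhibitor, overlapped the 2 other serum-free media. Kcnk1, a potassium leak channel, fell from 15.5, 16.6 and 17.7 RPM to 2.06, 2.76 and 4.7 RPM. Igfbp3, which binds insulin-like growth factors, fell from 38.6, 18.8 and 34.1 RPM to 3.71, 5.17 and 9.33 RPM. Leprel4, a protein of collagen processing in the endoplasmic reticulum, had differences of -2.46, -2.48 and -2.36. These genes were chosen for their small range, which is a description and no test of equality. Adad2, chosen by the same rule, was no longer called with the transcript score in the fit.

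At the other end stood genes whose shared call hid large differences between media. Gsc, the goosecoid homeobox factor of the organizer, was at 0.154, 0.215 and 0.155 RPM in S/L and at 6.92 to 10.8 RPM in MEKi/L, 0.324 to 0.597 RPM in GSK3i/L and 14.9 to 18.6 RPM in 2i/L. Pglyrp1, a peptidoglycan recognition protein, was at 0, 0.142 and 0 RPM in S/L and at 0.508 to 0.648 RPM in MEKi/L, 14.2 to 27.1 RPM in GSK3i/L and 5.09 to 8.23 RPM in 2i/L, the opposite order of MEKi/L and GSK3i/L. Calb2, the calcium-binding protein calretinin, was at 1.51, 2.36 and 2.45 RPM and at 3.89 to 5.04 RPM in MEKi/L, 42.2 to 55.9 RPM in GSK3i/L and 48.3 to 85.7 RPM in 2i/L. Its 2-fold rise in MEKi/L was not called after any of the 3 other scalings. Plac8, a small cysteine-rich protein, fell from 166, 116 and 107 RPM to 1.14 to 2.81 RPM in MEKi/L, 3.44 to 24.1 RPM in GSK3i/L and 0 to 0.265 RPM in 2i/L, and at 24 days in GSK3i/L it read 39.6 and 45.9 RPM. Pdlim2, a PDZ-LIM adaptor of the cytoskeleton, fell from 9.37, 8.83 and 8.16 RPM to 0.758 to 1.15 RPM in MEKi/L, 1.96 to 3.62 RPM in GSK3i/L and 0.0762 to 0.198 RPM in 2i/L. Gsc and Pglyrp1 rest on few reads in S/L and lost the call on a log2(RPM + 1) scale.

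**Figure D3:**
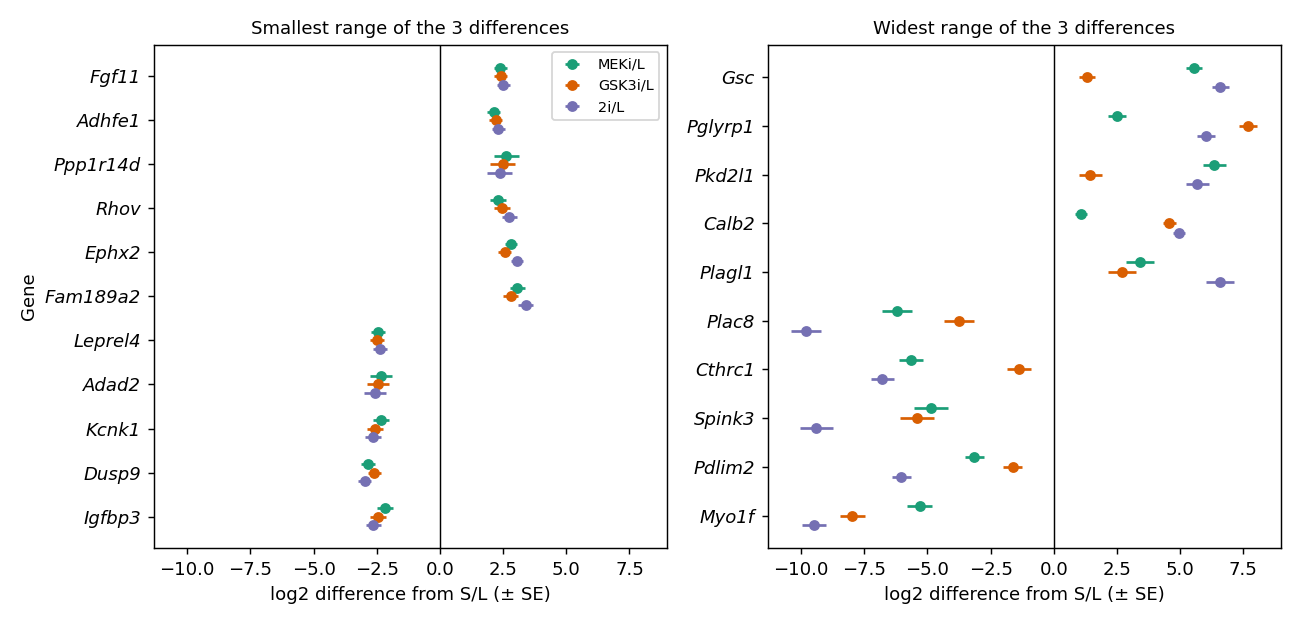
Log2 difference from S/L (horizontal axis, ± SE, 3 libraries per medium) in MEKi/L, GSK3i/L and 2i/L for shared genes with the smallest range of the 3 differences (left) and those with the widest (right). The 3 points of Fgf11 lie between 2.40 and 2.51, and those of Plac8 between -9.80 and -3.75.

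Some genes of fatty acid synthesis and desaturation were higher in every serum-free medium. Of 21 tested members 5 rose in all 3 media and none fell, with a median log2 difference of 0.93 against 0.19 for all genes, and 12 had all 9 serum-free libraries above S/L. Of all tested genes 5.79% rose in all 3 media and 15.6% had all 9 serum-free libraries above S/L. Scd1, the stearoyl-CoA desaturase that makes monounsaturated fatty acids (chr19:44394451-44407709), read 29, 24.9 and 26.4 RPM in S/L and 226 to 367 RPM in MEKi/L, 142 to 372 RPM in GSK3i/L and 504 to 583 RPM in 2i/L. It was 12.1-fold higher on average (log2 3.60 ± 0.23 SE, adjusted p = 7.3e-08, limma). Scd2, its neighbour and the form most used in embryos, went from 205, 181 and 221 RPM to 612, 1170.0 and 1689 RPM (lowest, median and highest), 5.3-fold higher. Acss2, which makes acetyl-CoA from acetate, rose 3.16-fold, from 8.75, 10.3 and 8.93 RPM to 17.2, 26.8 and 42.6 RPM. Fads1 and Fads2, the desaturases of polyunsaturated fatty acids, were 3.14-fold and 3.03-fold higher, and these calls were lost with the transcript score in the fit. Thrsp, a lipogenic regulator, was the member that was lower in the mean of the media: 2.48, 2.17 and 1.19 RPM in S/L and 0.2, 0.492 and 2.23 RPM elsewhere. At 24 days in GSK3i/L, Scd1 was at 98.7 and 119.9 RPM and Scd2 at 384 and 409 RPM, below every serum-free library at 8 days and above S/L.

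Few genes of cholesterol synthesis and uptake passed the rule. All 9 serum-free libraries exceeded S/L for 17 of 24 tested members, against 15.6% of all tested genes. The median log2 difference was 0.86 and none fell, yet only Hmgcs1 and Stard4 passed 2-fold in each medium. Hmgcs1, which makes the HMG-CoA from which sterols are built, read 121, 167 and 177 RPM in S/L and 275, 369 and 469 RPM in the serum-free libraries. Stard4, a sterol carrier, read 37.5, 33.2 and 36 RPM and 70.0, 91 and 99.9 RPM. Both shared calls were lost with the transcript score in the fit and after median centring. Srebf2, the transcription factor of this pathway, read 110.1, 146 and 144 RPM and 159, 333 and 422 RPM, with a mean difference of 1.16 ± 0.25 SE.

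Of 12 tested genes of cholesterol efflux and LXR targets 2 rose in all media and 1 fell. Scarb1, the receptor that exchanges cholesterol with high-density lipoprotein, rose in all media, from 18.3, 19.3 and 22.4 RPM to 51.8, 73.2 and 100.2 RPM. Mylip, an LXR target and ubiquitin ligase, rose from 2.23, 3.08 and 4.04 RPM to 18 to 26.1 RPM in MEKi/L, 7.39 to 9.57 RPM in GSK3i/L and 17.6 to 22.1 RPM in 2i/L. Abca1 and Abcg1, the LXR-driven cholesterol pumps, were not shared: Abca1 read 8.18, 7.08 and 7.74 RPM in S/L and 37.4 to 77.9 RPM in MEKi/L, 6.48 to 15.9 RPM in GSK3i/L and 49.4 to 76.3 RPM in 2i/L, so that GSK3i/L overlapped S/L. Arl4c, a small GTPase of the list, fell from 18.4, 21.6 and 29.9 RPM to 3.08, 6.46 and 9.19 RPM.

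Promoter sequences of the start site (250 bases before it, RefSeq, GRCm38.p6) were matched for 10126 tested genes and searched on both strands for a sterol element (TCACNCCAC). It was present in 0.978% of them and in 1.25% of the 560 shared rises with a sequence. Of 34 members of the fatty acid and cholesterol lists with a sequence it was found in Hmgcs1 alone, 137 bases before the start. That stretch (chr13:119690101-119690350, + strand) is shown because Hmgcs1 is the shared sterol gene that holds the match, in capitals.

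Hmgcs1: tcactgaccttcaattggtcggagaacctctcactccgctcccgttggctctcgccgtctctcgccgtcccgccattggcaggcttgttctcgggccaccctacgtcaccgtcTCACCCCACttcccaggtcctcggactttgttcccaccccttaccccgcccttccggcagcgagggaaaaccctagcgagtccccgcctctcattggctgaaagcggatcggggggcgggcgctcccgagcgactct

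Of 23 tested genes of glutathione and antioxidant defence 4 rose in all media, none fell in all, and the median was 0.51. Gss, glutathione synthetase, read 29.7, 31.6 and 25.7 RPM in S/L and 96 to 118 RPM in MEKi/L, 81.1 to 156 RPM in GSK3i/L and 131 to 189.8 RPM in 2i/L. Its mean difference was 2.08 ± 0.18 SE (adjusted p = 1.1e-06, limma), with no overlap. Gsr, glutathione reductase, rose from 31.1, 45.3 and 42.7 RPM to 85.2, 176 and 196 RPM. Cat, catalase, rose from 26.5, 39.8 and 36.3 RPM to 87.4, 149 and 168 RPM, and Gstm1, a glutathione transferase, from 9.85, 15.3 and 15.4 RPM to 31.8, 52 and 69.9 RPM. These 4 calls held under each of the 23 alternatives that keep the 2-fold limit, and none of them reached 4-fold in every medium. Mgst1 and Prdx1, a membrane glutathione transferase and a peroxiredoxin, went the other way in the mean of the media. Mgst1 read 6.08, 7.18 and 4.57 RPM in S/L and 0.317 to 1.44 RPM in MEKi/L, 1.8 to 3.75 RPM in GSK3i/L and 0 to 0.265 RPM in 2i/L. Among selenoproteins, Gpx4, the lipid peroxide reductase, fell from 955, 955 and 816 RPM to 49.5, 118 and 307 RPM, a call lost with the transcript score in the fit (log2 -1.24 there, against -2.68). Sepp1, the secreted selenium carrier, fell from 116, 45.3 and 61.8 RPM to 2.48 to 5.97 RPM in MEKi/L, 3.24 to 14.4 RPM in GSK3i/L and 1.07 to 1.78 RPM in 2i/L. These were the only shared members among 14 tested selenoproteins.

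Of 27 tested lysosome genes 7 rose in all 3 media (5 with the transcript score in the fit), 13 rose in the mean and none fell, with a median of 0.88. Of all tested genes 5.79% rose in all 3 media and 16.1% in the mean. Mitf, which with Tfeb drives lysosome formation, read 6.35, 4.64 and 5.45 RPM in S/L and 46.3 to 78.2 RPM in MEKi/L, 17.1 to 35.6 RPM in GSK3i/L and 59.2 to 85 RPM in 2i/L. Its mean difference was 3.12 ± 0.22 SE (adjusted p = 1.6e-07, limma). Gpnmb, a lysosomal glycoprotein and MITF target, was at 0.344, 0.215 and 0.155 RPM in S/L and 15 to 19.8 RPM in MEKi/L, 2.38 to 3.03 RPM in GSK3i/L and 8.54 to 12.1 RPM in 2i/L. Gpnmb passed the filter on low values (0.5 RPM in 3 libraries) only through serum-free libraries. The count of rises is therefore no measure of the list. Lamp2, a lysosomal membrane protein, rose from 54.1, 54.9 and 49.5 RPM to 109, 167 and 238 RPM and Hexa, a hexosaminidase subunit, from 38.7, 42.4 and 40.8 RPM to 70.8, 104 and 262 RPM. Ctsc, the protease cathepsin C, was not shared because MEKi/L overlapped S/L: 5.42, 3.77 and 3.92 RPM in S/L and 3.89 to 7.48 RPM in MEKi/L, 16.6 to 22.3 RPM in GSK3i/L and 52 to 81.5 RPM in 2i/L. A promoter search for the CLEAR element (TCACGTGA), a binding motif of these factors, found it in 3 of 23 members with a sequence, in none of the 7 shared ones, and in 1.5% of all promoters.

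Amino acid and iron genes gave few shared calls. In the list of ATF4 targets 3 of 21 rose (Asns, Nupr1 and Vldlr), beside 5.79% of all tested genes. Asns, asparagine synthetase, read 205, 228 and 272 RPM in S/L and 468 to 569 RPM in MEKi/L, 681 to 1143 RPM in GSK3i/L and 974 to 1141 RPM in 2i/L. Nupr1, a stress-induced nuclear protein, read 18.1, 13.5 and 16.8 RPM and 35.3, 53 and 83.8 RPM, and was at 106 and 129.9 RPM after 24 days. The Asns and Vldlr calls were lost after median centring, after trimmed mean scaling and with the transcript score. In the methionine cycle, Gnmt, which disposes of S-adenosylmethionine, fell from 6.48, 7.72 and 5.02 RPM to 0.316, 0.914 and 2.3 RPM, and Cbs, which commits homocysteine to cysteine, rose from 16.3, 22.5 and 21.8 RPM to 37.2 to 51.2 RPM in MEKi/L, 36.9 to 84.2 RPM in GSK3i/L and 167 to 235 RPM in 2i/L. Cbs lost its call under the same 3 settings as Asns. None of 14 iron genes rose in all media and 3 fell. With the transcript score 1 fall was called, and without S/L replicate 1 or on the log2(RPM + 1) scale there were 0. Steap3, an iron reductase, read 20.0, 12 and 13.2 RPM in S/L and 5.97 to 8.82 RPM in MEKi/L, 0.586 to 0.991 RPM in GSK3i/L and 1.52 to 2.53 RPM in 2i/L, and its call was lost without any 1 of the S/L or MEKi/L libraries. The hypoxia-responsive Bnip3, a mitophagy receptor, fell from 384, 267 and 200.2 RPM to 35.5 to 62.7 RPM in MEKi/L, 29.5 to 107 RPM in GSK3i/L and 3.77 to 14.3 RPM in 2i/L.

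**Figure D4:**
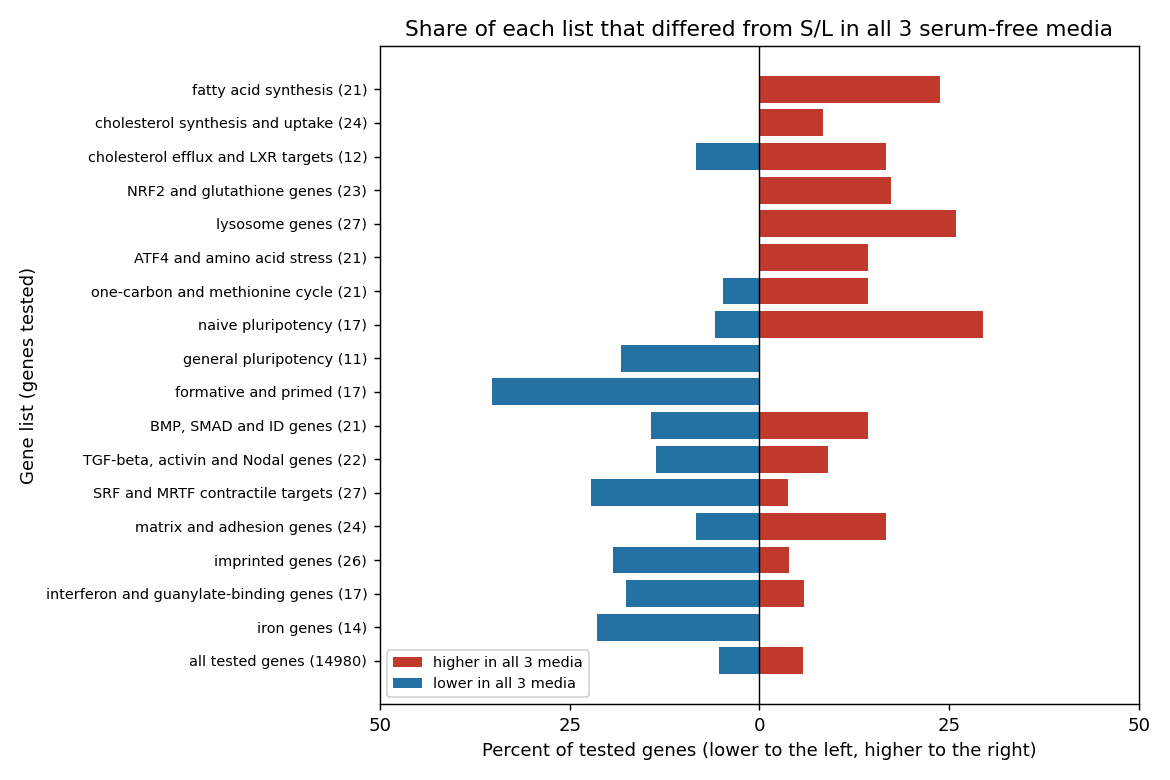
Percent of the tested genes of 17 gene lists, and of all tested genes, that were higher (right, red) or lower (left, blue) than S/L in all 3 serum-free media; the number tested stands in brackets. Of 21 fatty acid genes 5 were higher and of 17 formative genes 6 lower, beside 5.79% and 5.38% of all genes.

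BMP signalling genes split into rises and falls. ID proteins block neural and other differentiation factors and are classic BMP targets in serum. Id1 (chr2:152736251-152737410) read 47.6, 45.1 and 53 RPM in S/L and 0.36 to 1.46 RPM in MEKi/L, 3.42 to 14.4 RPM in GSK3i/L and 1.52 to 2.12 RPM in 2i/L. Its log2 differences were -6.18, -2.75 and -4.79, and the media differed (adjusted p = 0.00045, limma F test). Id2 fell from 39.8, 44.1 and 39 RPM to 8.57 to 15.8 RPM in MEKi/L, 3 to 5.67 RPM in GSK3i/L and 3.43 to 5.22 RPM in 2i/L. Id3 was not shared: it read 28.4, 27.8 and 19.7 RPM in S/L and 1.73 to 5.27 RPM in MEKi/L, 35.9 to 69.4 RPM in GSK3i/L and 1.72 to 13.4 RPM in 2i/L, so that GSK3i/L stood above S/L and the other media below it. Id4 went against both, from 1.62, 1.89 and 1.39 RPM to 24 to 35.6 RPM in MEKi/L, 8.3 to 10.2 RPM in GSK3i/L and 30.3 to 36.8 RPM in 2i/L, with a mean difference of 3.66 ± 0.17 SE (adjusted p = 8.3e-09, limma). The ligand Bmp7 rose from 2.48, 2.98 and 1.47 RPM to 4.12, 8.85 and 20.5 RPM. The ligand Bmp4 was at 15.2, 9.82 and 11.5 RPM in S/L and at 1.87 to 3.94 RPM in MEKi/L, 30.4 to 49.2 RPM in GSK3i/L and 1.26 to 4.42 RPM in 2i/L. In total 3 of 21 members rose (Smad9, Id4, Bmp7) and 3 fell (Id1, Id2, Dusp9) in all media, and each of these calls held under every alternative that keeps the 2-fold limit. Smad9 passed the filter on low values only through serum-free libraries, so the count of rises is no measure of the list.

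Of 22 genes of TGF-beta, activin and Nodal signalling 2 rose and 3 fell (1 and 3 with the transcript score). Of all tested genes 5.79% rose and 5.38% fell, and the list median was 0.09 against 0.19 for all genes. Tgfbr2, the receptor that binds TGF-beta itself, read 0.451, 0.306 and 0.155 RPM in S/L and 0.948 to 2.29 RPM in MEKi/L, 2.7 to 5.02 RPM in GSK3i/L and 8.79 to 9.37 RPM in 2i/L. It passed the filter on low values only through serum-free libraries. Lefty1, the Nodal antagonist, fell from 131, 195 and 95.2 RPM to 48 to 97.1 RPM in MEKi/L, 16.1 to 23.2 RPM in GSK3i/L and 11.5 to 17.8 RPM in 2i/L, with overlap between MEKi/L and S/L. Its call was lost without S/L replicate 2 or MEKi/L replicate 2 or 3. Of 17 retinoid genes only Rarg, a retinoic acid receptor, was shared, falling from 134, 149.9 and 175 RPM to 11.4, 26.1 and 56.9 RPM. Stra8, the retinoid-induced germline gene, read 6.22, 10.1 and 5.86 RPM in S/L and 0.2, 1.08 and 3.81 RPM in the others, and missed the shared rule.

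Of 27 contractile targets of SRF 6 fell in all media and 1 rose, with a median of -0.60. With a filter of 2 RPM in 3 libraries 23 were tested, 5 fell and 0 rose, with a median of -0.11. Acta1 and Mylk, each near 0 on 1 side, did not pass that filter, so these counts depend on it. Tagln, the smooth muscle actin-binding protein transgelin (chr9:45929628-45936058), read 382, 163 and 291 RPM in S/L and 1.99 to 6.33 RPM in MEKi/L, 37.3 to 94.2 RPM in GSK3i/L and 4.03 to 4.88 RPM in 2i/L. It was 27.5-fold lower on average (log2 -4.78 ± 0.36 SE, adjusted p = 2.8e-07, limma), and GSK3i/L kept more of it than the other media (adjusted p = 1.8e-05, limma F test). Cnn1, calponin, fell from 13.4, 8.95 and 12.2 RPM to 0.379 to 0.864 RPM in MEKi/L, 0.995 to 1.44 RPM in GSK3i/L and 0 to 0.265 RPM in 2i/L. Acta1, skeletal actin, was at 3.88, 1.89 and 4.9 RPM in S/L and 0, 0.132 and 0.508 RPM (lowest, median and highest) elsewhere. Pdlim7, a PDZ-LIM adaptor at actin fibres, fell from 46.3, 55.6 and 64.9 RPM to 6.61, 14.5 and 20.9 RPM. Myl9, a myosin light chain, overlapped S/L in GSK3i/L: it read 11.6, 6.83 and 12.4 RPM in S/L and 2.95 to 3.43 RPM in MEKi/L, 4.88 to 7.26 RPM in GSK3i/L and 0.152 to 0.397 RPM in 2i/L. Mylk, the rise, was at 0, 0 and 0.0935 RPM in S/L and 0.381, 0.492 and 1.09 RPM elsewhere, near the level of 3 reads, and lost the call on the log2(RPM + 1) scale and with the transcript score. It passed the filter on low values only through serum-free libraries. Targets of YAP and TEAD did not share a direction. Of 17, 2 rose and 1 fell (1 and 0 with the transcript score), beside 5.79% and 5.38% of all tested genes. Tead4, the DNA-binding partner itself, rose from 4.16, 6.52 and 5.34 RPM to 22.5, 42.5 and 66.2 RPM, whereas Ctgf, a standard target, read 40.3, 42.5 and 42.6 RPM in S/L and 13.8, 16.7 and 27.5 RPM and missed 2-fold in MEKi/L.

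The CArG box, the SRF binding motif, was present in 1.2% of all promoters and in 8 of 24 list members with a sequence. Of the 5 shared falls with a sequence Acta1 alone held it, 73 bases before the start (chr8:123894776-123895025, - strand). It is shown for that reason, with the box in capitals. Such a match is a description of the letters only.

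Acta1: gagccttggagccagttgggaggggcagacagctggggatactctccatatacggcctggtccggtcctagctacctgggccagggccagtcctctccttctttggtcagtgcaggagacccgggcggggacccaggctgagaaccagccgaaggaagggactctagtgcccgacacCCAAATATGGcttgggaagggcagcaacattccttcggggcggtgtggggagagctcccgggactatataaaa

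Matrix and adhesion genes went both ways. Of 24 tested members 4 rose and 2 fell, with a median of 0.60. Of the rises, Fbn2 lost its call under 17 of the 23 alternatives that keep the 2-fold limit, and Nid1 under 7. With the transcript score in the fit 0 rose and 2 fell, and the median was -0.19. Fn1, fibronectin, rose from 155, 199 and 179.7 RPM to 368 to 1066 RPM in MEKi/L, 336 to 1471 RPM in GSK3i/L and 1402 to 1785 RPM in 2i/L, and Lama1, a laminin chain of basement membrane, from 23.8, 34.7 and 35.4 RPM to 72.5 to 157 RPM in MEKi/L, 55.6 to 162 RPM in GSK3i/L and 259 to 335 RPM in 2i/L. Itga3, an integrin subunit that binds laminin, fell from 70.3, 49 and 78.8 RPM to 7.11 to 12.2 RPM in MEKi/L, 3.29 to 8.02 RPM in GSK3i/L and 15.9 to 21.5 RPM in 2i/L. Its call held under every alternative that keeps the 2-fold limit. Markers of fibroblasts moved with part of this list: the 10 markers summed to 26.5 to 46.7 RPM in S/L, 7.49 to 12.2 RPM in MEKi/L, 140 to 285 RPM in GSK3i/L and 18.6 to 20.5 RPM in 2i/L. Col3a1, a fibrillar collagen, was at 0.241, 0 and 0.155 RPM in S/L and 0 to 0.284 RPM in MEKi/L, 51 to 124 RPM in GSK3i/L and 1.65 to 1.98 RPM in 2i/L, and Tnc and Fbn2 also peaked in GSK3i/L. None of the 9 tested fibroblast markers was shared. The 8 primitive endoderm markers, which include Lama1, summed to 32.3 to 47.2 RPM in S/L and to 79.9 to 164, 63.7 to 183 and 263 to 341 RPM in MEKi/L, GSK3i/L and 2i/L. Lama1 alone made up most of these sums, and it was the only shared gene among the 7 tested markers. The part of other cell types in the matrix genes was not tested. In bulk RNA, fewer cells of a type and less RNA per cell cannot be told apart.

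**Figure D5:**
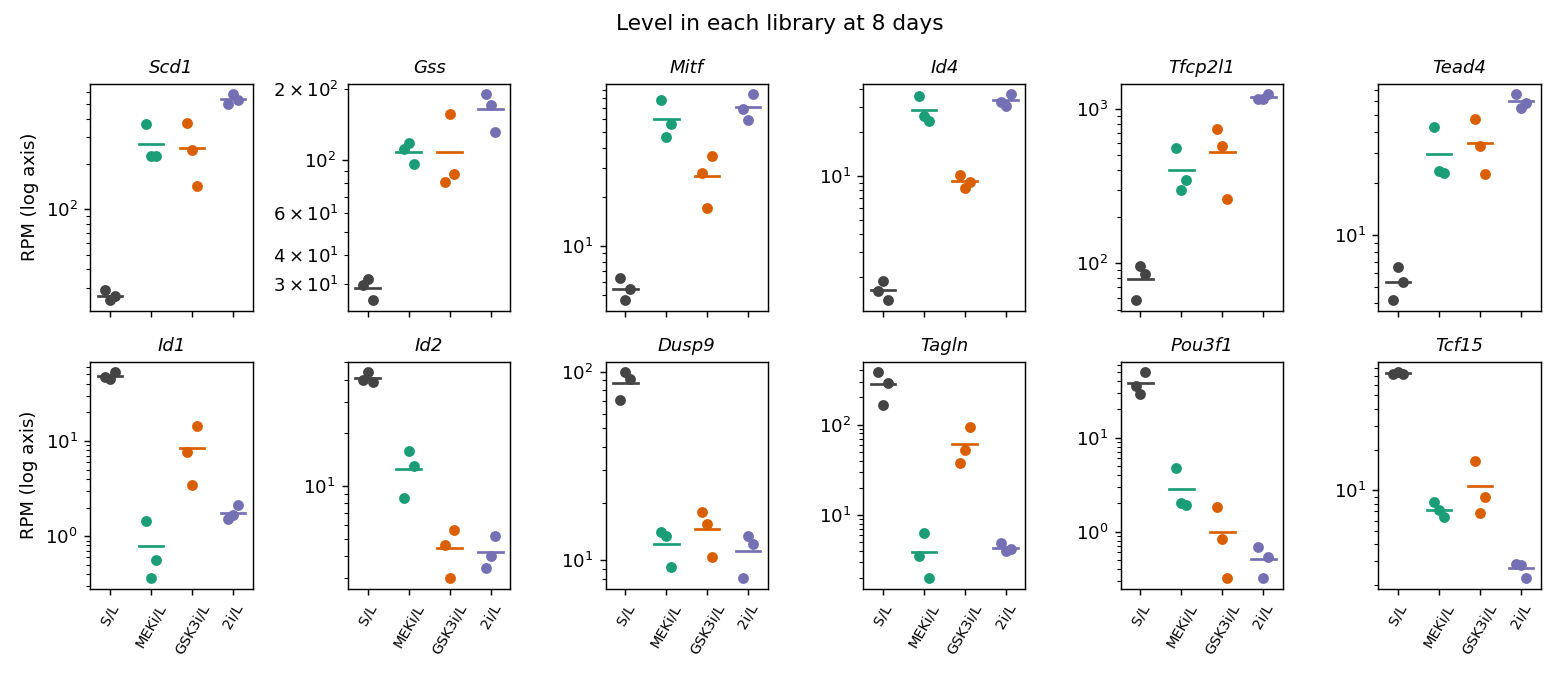
Level (RPM, log axis, own scale per panel) of 12 genes named in the text in each library at 8 days; points are libraries and bars are means of 3. For each gene all 9 serum-free libraries lie on 1 side of the 3 S/L libraries, above them in the upper row and below them in the lower row.

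Of 17 naive pluripotency genes 5 rose in all media and 1 fell (Dppa3), with a median of 1.16. Tfcp2l1, a STAT3 target that sustains self-renewal (chr1:118627945-118685167), read 57.5, 95.7 and 85.3 RPM in S/L and 297 to 559 RPM in MEKi/L, 262 to 744 RPM in GSK3i/L and 1157 to 1250.0 RPM in 2i/L. Its mean difference was 2.96 ± 0.28 SE (adjusted p = 2.2e-06, limma). Tbx3, a T-box factor, rose from 48.1, 58.3 and 43.7 RPM to 199.5 to 342 RPM in MEKi/L, 89.7 to 208 RPM in GSK3i/L and 284 to 334 RPM in 2i/L. Both held under every alternative that keeps the 2-fold limit, while Klf4, Prdm14 and Nr5a2 lost the shared call with the transcript score in the fit. Nanog missed 2-fold in GSK3i/L: it read 349, 384 and 399 RPM in S/L and 718 to 876 RPM in MEKi/L, 399.8 to 570.4 RPM in GSK3i/L and 678 to 773 RPM in 2i/L. Gbx2, a STAT3 target, was lower and not shared, at 45.7, 32.5 and 60.4 RPM in S/L and 1.22 to 2.29 RPM in MEKi/L, 24.3 to 34.7 RPM in GSK3i/L and 11.3 to 14.9 RPM in 2i/L. Of 16 LIF and STAT3 genes 3 rose (Osm, Klf4, Tfcp2l1), and Junb, an AP-1 subunit, fell from 36.8, 32 and 47.3 RPM to 11.1, 15.7 and 20.9 RPM. Osm passed the filter on low values only through serum-free libraries. Dppa2 and Dppa4, which form a chromatin-binding pair in pluripotent cells, fell, Dppa2 from 98.6, 65.5 and 76.4 RPM to 12.9 to 19.7 RPM in MEKi/L, 15.7 to 29.1 RPM in GSK3i/L and 7.19 to 11.4 RPM in 2i/L. The Dppa4 call was lost with the transcript score and without GSK3i/L replicate 2.

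Of 17 formative and primed genes 6 fell and none rose, with a median of -1.95. Pou3f1, the POU factor of formative cells (chr4:124657646-124660655), read 35.1, 29.4 and 49.9 RPM in S/L and 1.9 to 4.7 RPM in MEKi/L, 0.324 to 1.85 RPM in GSK3i/L and 0.316 to 0.686 RPM in 2i/L. Its mean difference was -5.21 ± 0.45 SE (adjusted p = 9.2e-07, limma). Tcf15, a helix-loop-helix factor that primes cells for differentiation, fell from 72.2, 74.4 and 72.1 RPM to 6.35 to 8.19 RPM in MEKi/L, 6.8 to 16.5 RPM in GSK3i/L and 2.25 to 2.9 RPM in 2i/L. Fgf15, a growth factor, read 8.98, 10.1 and 12.4 RPM in S/L and 2.59 to 4.51 RPM in MEKi/L, 0.182 to 0.734 RPM in GSK3i/L and 0.474 to 0.992 RPM in 2i/L. Dnmt3a, a de novo DNA methyltransferase, fell from 141, 122 and 137 RPM to 36.5 to 62.5 RPM in MEKi/L, 19.3 to 38.3 RPM in GSK3i/L and 9.22 to 13.9 RPM in 2i/L, and the media differed (adjusted p = 0.00061, limma F test). Dnmt3b and Dnmt3l were not shared: Dnmt3l read 208, 277 and 307 RPM in S/L and 126 to 209.5 RPM in MEKi/L, 160.0 to 182 RPM in GSK3i/L and 4.03 to 13.6 RPM in 2i/L. Uhrf1, the maintenance methylation cofactor, rose from 122, 159 and 151 RPM to 245, 548 and 702 RPM, a call lost with the transcript score. Of 21 MEK and ERK targets 4 fell in all media, among them Dusp5 and Phlda1. Leaving out any 1 S/L library, GSK3i/L replicate 2, MEKi/L replicate 3 or 2i/L replicate 2 gave 2 falls. Spry4, an ERK feedback inhibitor, was not shared, at 77.9, 56.6 and 110.0 RPM in S/L and 0.19 to 1.21 RPM in MEKi/L, 35.3 to 91.6 RPM in GSK3i/L and 0.397 to 2.13 RPM in 2i/L. No member of 18 tested Wnt targets was shared, and Axin2, the standard target, read 6.08, 4.2 and 5.67 RPM in S/L and 3.6 to 6.28 RPM in MEKi/L, 36.9 to 59.1 RPM in GSK3i/L and 57 to 76.3 RPM in 2i/L.

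Genes of the 2-cell-like state were near 0 outside serum. Of 18 listed genes 12 were in the table and 7 passed the filter on low values, which these passed through S/L, so their count is no measure of the list. Zscan4c (chr7:11005722-11010547) read 9.11, 5.21 and 3.82 RPM in S/L and 0 to 0.072 RPM in MEKi/L, 0 to 0.182 RPM in GSK3i/L and 0 to 0 RPM in 2i/L. Gm2022, on another chromosome (chr12:87892834-87896722), read 31.2, 20.9 and 12.9 RPM and 0.0635 to 0.36 RPM in MEKi/L, 0 to 1.15 RPM in GSK3i/L and 0 to 0.198 RPM in 2i/L. In both, S/L replicate 1 was highest and replicate 3 lowest, as in Zscan4d and Zscan4f. Tmem92, outside these families, read 2.36, 3.19 and 2.07 RPM and 0 to 0 RPM in MEKi/L, 0 to 0.461 RPM in GSK3i/L and 0 to 0 RPM in 2i/L. Zscan4 copies are nearly identical, so reads may be split or shared among them, and the same holds for Dub1 and Dub1a. At 24 days in GSK3i/L the Zscan4 genes, Gm2022 and Tmem92 were at 0.

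Guanylate-binding genes were also near 0 outside serum. Gbp2 (chr3:142620602-142638008), an interferon-induced GTPase, read 20.7, 6.64 and 12.6 RPM in S/L and 0 to 0.698 RPM in MEKi/L, 0.128 to 0.47 RPM in GSK3i/L and 0 to 0.229 RPM in 2i/L, and the adjacent Gbp1 14.6, 5.41 and 10.4 RPM and 0.072 to 0.254 RPM in MEKi/L, 0.128 to 0.324 RPM in GSK3i/L and 0 to 0.152 RPM in 2i/L. Psmb8, an immunoproteasome subunit, read 4.57, 1.81 and 3.47 RPM and 0 to 0.19 RPM in MEKi/L, 0 to 0.337 RPM in GSK3i/L and 0 to 0 RPM in 2i/L. Of 25 listed interferon-related genes 17 passed the filter on low values, Gbp2 and Psmb8 among them only through S/L, so the count of falls is no measure of the list. Of the 17 tested 3 fell (Gbp2, Psmb8, Oasl2), and without the filter 5 of 25 fell. The Oasl2 call was lost on the log2(RPM + 1) scale and with the transcript score. Stat2, which carries the interferon signal, rose from 14.4, 23.4 and 17.4 RPM to 37.1, 53.3 and 79.3 RPM.

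Of 26 tested imprinted genes 5 fell and 1 rose, with a median of -0.70. Cdkn1c, a cell cycle inhibitor, read 86.2, 94 and 104 RPM in S/L and 9.48 to 15.1 RPM in MEKi/L, 8.96 to 16.3 RPM in GSK3i/L and 3.73 to 4.36 RPM in 2i/L. Peg10, a retrotransposon-derived placental gene, fell from 135, 107 and 132 RPM to 6.19 to 13.1 RPM in MEKi/L, 17.8 to 53.9 RPM in GSK3i/L and 13 to 17.7 RPM in 2i/L. Dlk1, a Notch-like ligand, was at 4.02, 3.44 and 7.12 RPM and 0, 0.182 and 1.56 RPM, and Magel2 at 2.82, 1.22 and 3.27 RPM and 0, 0 and 0.379 RPM. Magel2 passed the filter on low values only through S/L. Plagl1, a zinc finger factor, was the rise, at 0, 0.379 and 0.0935 RPM in S/L and 1.42 to 1.78 RPM in MEKi/L, 0.461 to 1.49 RPM in GSK3i/L and 12.3 to 15.9 RPM in 2i/L, and lost the call on the log2(RPM + 1) scale. It passed the filter on low values only through serum-free libraries. Dio3, a thyroid hormone deiodinase, followed the MEK inhibitor and was not shared, at 0.99, 0.745 and 0.614 RPM in S/L and 36.6 to 65.9 RPM in MEKi/L, 0.47 to 2.5 RPM in GSK3i/L and 11.2 to 17.8 RPM in 2i/L. Of 22 germline genes with methylated promoters 3 fell and 1 rose (2 and 0 with the transcript score, and 1 fell without S/L replicate 1). Of all tested genes 5.38% fell and 5.79% rose. Ddx4, the germ cell helicase VASA, fell from 23.8, 16.5 and 21.4 RPM to 3.56, 7.49 and 9.73 RPM, and this call held under every alternative that keeps the 2-fold limit.

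Markers of other lineages gave few shared genes. Pax6, a neural and eye factor, fell from 33.1, 29.2 and 33.1 RPM to 14.4 to 17.8 RPM in MEKi/L, 7.16 to 11.7 RPM in GSK3i/L and 9.59 to 11.3 RPM in 2i/L. Its call was lost on the log2(RPM + 1) scale and without MEKi/L replicate 2 or 3. Krt18, a simple epithelial keratin, fell from 51.8, 21.9 and 44.2 RPM to 4.1, 6.35 and 11.2 RPM. Neurog2 was at 0 in every medium at 8 days. Sums of the 8 trophoblast markers lay between 43.9 and 117 RPM, and those of the 7 neural markers between 39.4 and 227 RPM, over all libraries at 8 days.

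At the 2-fold limit, Kcnj12 and Ctdsp2 were the last rises inside, with 2.92, 1.00 and 2.56 and 1.21, 1.00 and 1.98 in MEKi/L, GSK3i/L and 2i/L, and Magi3 (1.00, 1.12 and 1.91) lay just outside. Cycs (-1.05, -1.0 and -1.41) and Ggct (-1.34, -1.19 and -1.0) were the last falls inside, and Dnajc12 (-1.0, -1.36 and -1.61) and Fcf1 (-1.10, -1.0 and -1.83) the first outside. The calls of Kcnj12, Ctdsp2, Cycs and Ggct were lost with the transcript score in the fit. These values are descriptions of where the limit lies.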

How the data were processed

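The 14 RNA sequencing libraries were analysed; values of the 24 bisulfite samples were left aside. Libraries were strand-specific, from poly(A)-selected RNA, and read from 1 end, per the labels' protocols. HISAT2, Bismark 0.22.3, Trim Galore 0.6.5 and the build GRCm38 are listed in the submitters' processing notes. How genes were counted, by which annotation and whether by strand is not given in the sources used here. A single table of log2 RPM values for 25965 genes was deposited by the authors. In its 8 plain columns at least 99.96% of values were whole multiples of 1 read (within 0.02 read) and 0 reads stood at 0.9 read, whereas the 6 S/L and GSK3i/L columns at 8 days had been matched to 1 distribution, so S/L counts could not be recovered and no count test was run. Symbols were used as deposited; 25 had been turned into dates. Depths of matched libraries are approximate, and floors cover counting error only.

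Genes with at least 0.5 RPM in 3 libraries (14980) entered 1 limma 3.58.1 fit (R 4.3.3, trend and robust) of 5 groups, checked on simulated data. Each medium, and the mean of the 3 media, was compared with S/L. Zero reads stayed at the 0.9-read value in the fit, which understates differences of genes near 0, and count as 0 in quoted levels. Named genes are the 15 largest shared rises and falls (smallest of the 3 differences), the 6 rises and falls with the smallest range of at least 4-fold and the 5 with the widest, all without overlap and with at least 5 RPM on the higher side, plus up to 6 members per list with the largest mean difference and 2 genes on each side of the 2-fold limit. Predicted genes and pseudogenes were left out, and a few genes that the rules select are not reported here. A few other genes (Slfn8, Bmp4, Id3 and further list members) were named after their values were seen. The comparison, the 35 lists and the rules were chosen with earlier results of these data known. Alternatives were 3 scalings, filters, log2(RPM + 1), the score as covariate, other folds, and leaving out each library. Deviations of same-numbered libraries correlated between -0.30 and 0.67 (6 of 18 pairs over 0.1). All 3 pairs of MEKi/L with GSK3i/L were over 0.1 (0.12 to 0.67), whereas no medium had this with S/L, so the comparisons with S/L were not taken as paired; a fit with a replicate block is among the alternatives.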

Additional observations from a re-analysis of the deposited data

Results flagged for a closer look

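For 10 shared genes the 3 media differed in the size of their difference from S/L by a limma F test among the media, which does not use S/L. They had been chosen for the widest range of the 3 log2 differences, so the test describes them and adds no support. Among rises the range was 5.28 for Gsc, 5.18 for Pglyrp1, 4.92 for Pkd2l1, 3.89 for Calb2 and 3.88 for Plagl1. Pglyrp1 was lowest in MEKi/L among the serum-free media (log2 differences of 2.52 in MEKi/L, 7.70 in GSK3i/L and 6.02 in 2i/L), and so was Calb2, while Gsc, Pkd2l1 and Plagl1 were lowest in GSK3i/L. Among falls it was 6.06 for Plac8, 5.40 for Cthrc1, 4.53 for Spink3, 4.41 for Pdlim2 and 4.18 for Myo1f. These 5 fell furthest in 2i/L. Differences of genes near 0 reads on 1 side, such as Pglyrp1, Gsc and Plac8, depend on the value that stands for 0 reads and are no bound.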

How the results depend on the processing

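No named shared gene was called in the opposite direction under another setting. Of 145 named shared genes 93 kept the call under all 23 alternatives that keep the 2-fold limit. On the log2(RPM + 1) scale 476 genes rose in all media and 1537 in the mean. With the transcript score as covariate 561 rose and 497 fell in all media, 1424 and 1185 in the mean, and 51.9% of the shared falls differed among media. With the score Dppa5a (0.07), Tet1 (-0.29) and Ndufa4 (0.12) reversed. With no minimum fold 1732 rose in all media, and 5162 rose and 3352 fell in the mean. At 4-fold these were 231 and 263 in all media and 667 and 696 in the mean. Quantile normalization gave 799 shared rises and 876 falls, and median centring 753 and 891. Without MEKi/L replicate 1 and GSK3i/L replicate 1, a setting chosen after seeing the data, 537 fell in all media. Leaving out 1 library gave from 463 (without S/L replicate 1) to 1016 (without GSK3i/L replicate 3) shared falls, of which 26.1% to 51.5% differed among media. With a replicate block 873 rose and 844 fell in all media, 2419 and 2062 in the mean, 51.0% and 34.5% of the shared genes differed among media, and 17 of 36 comparisons placed a library closest to its own number. Depth limits genes whose S/L or serum-free level lies near 3 reads.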

Other observations

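Gene families noticed after their values were seen add to the shared genes and were not tested as groups; of all tested genes 5.79% rose and 5.38% fell in all media. Of 6 tested genes of the Hoxc cluster of body-axis factors 4 rose (Hoxc4, Hoxc10, Hoxc12, Hoxc13), and Hoxc13 read 1.41, 2.98 and 2.27 RPM in S/L and 7.26 to 20.0 RPM in the serum-free libraries. Of 7 Gstm glutathione transferases 4 rose and 1 (Gstm5) fell. The metal-binding metallothioneins Mt1 and Mt2 rose together. Mt2 read 93.6, 136 and 123 RPM in S/L, 337 to 414 RPM in MEKi/L, 311 to 454 RPM in GSK3i/L and 722 to 837 RPM in 2i/L, and both stayed above S/L at 24 days.

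Of 21 canonical histone genes, read here from poly(A)-selected RNA, 9 fell and none rose. Of 38 proteasome subunits 7 fell, of 77 mitochondrial ribosomal proteins 14 fell and of 6 thymosins 4 fell, none rising. The thymosin falls were Tmsb4x, Tmsb15l, Tmsb15b1 and Tmsb15b2, and reads may be split between the similar Tmsb15 genes. Tmsb4x, an actin-binding peptide, read between 26.1 and 35.7 RPM in 2i/L. The transcript score also differed between these groups of libraries, and its part in these falls was not tested.

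Of 16 tested H2 class I and related genes 4 fell (H2-K1, H2-M3, H2-Q6, H2-Q7). H2-K1, a classical antigen-presenting molecule, read 27.4, 22.2 and 27.5 RPM in S/L and 4.72 to 13.5 RPM in the serum-free libraries. At 24 days in GSK3i/L it was at 18.2 and 22.4 RPM.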
